A study of Mus musculus with 14 samples.

Results

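The contrast examined here is the difference between Selp high and Selp low long-term hematopoietic stem cells (LT-HSCs) after transplantation minus the same difference before transplantation. It was computed for every expressed gene from all 14 libraries of the series, and 16878 of 55450 annotated genes had enough reads to be tested. A positive value means that the Selp high arm gained on the Selp low arm between the stages, and a negative value that it lost ground. All values are log2 unless they are given as CPM, a gene's reads as a share of all reads in genes after scaling between libraries.

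Polyadenylated RNA was sequenced from about 5000 sorted bone marrow cells per library, taken from female C57BL/6 mice. Before transplantation there were 4 Selp low and 4 Selp high libraries from mice older than 24 months. Same-numbered libraries of this stage deviated together and are taken below as those of the same mouse, 4 mice in all. Each cell was lineage-negative, Sca-1+, c-Kit+, CD48- and CD150+ with low or high surface P-selectin. Of each kind, 1000 cells went into lethally irradiated recipients aged 10 to 16 weeks. After 16 weeks the CD45.2+ donor-derived cells of the same phenotype, which were not gated on P-selectin, gave 3 Selp low-derived and 3 Selp high-derived libraries. Recipient, irradiation, the CD45.2 gate and collection therefore change together with the stage and cannot be told apart from transplantation. A difference in a bulk library can come from fewer cells of a kind or from less RNA per cell, and these cannot be told apart.

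P-selectin, encoded by Selp, is an adhesion receptor best known from platelets and endothelium, where it captures leukocytes by binding the glycoprotein encoded by Selplg, and its surface level on hematopoietic stem cells increases with age. Myc drives growth and division of stem cells leaving dormancy. Sox4 is a transcription factor of early lymphoid and progenitor development, Irf2bp2 encodes a corepressor that binds an interferon regulatory factor, and Igip encodes a small secreted protein named for inducing IgA. These 4 genes were given as markers of this contrast and chosen with earlier results of these data known. Their values and calls below are therefore a description and lend it no support.

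The 250 bases upstream of the gene start are shown for 4 genes that carry the main patterns: a difference present before transplantation with a higher level in both arms after it (Sox4, Slc22a3), a difference of opposite sign at the 2 stages (Irf2bp2), and a difference seen after transplantation alone (Sun2). The sequences come from RefSeq on GRCm38.p6, are written 5′ to 3′ on the gene's strand, and lie on the minus strand at chr13:28953700-28953949, chr17:12507705-12507954, chr8:126593987-126594236 and chr15:79742537-79742786 respectively. Capitals mark every match, on either strand, to 7 motifs: the E-box CACGTG, AP-1 TGANTCA, the cyclic AMP element TGACGTCA, the NF-Y box CCAAT, the cell cycle homology region TTTGAA, the GC box GGGCGG and the RUNX core TGTGGT.
Sox4: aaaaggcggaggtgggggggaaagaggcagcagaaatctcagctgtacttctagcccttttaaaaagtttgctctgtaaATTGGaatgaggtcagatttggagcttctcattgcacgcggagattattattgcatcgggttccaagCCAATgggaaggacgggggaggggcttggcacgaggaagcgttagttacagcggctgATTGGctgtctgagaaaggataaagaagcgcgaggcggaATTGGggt
Slc22a3: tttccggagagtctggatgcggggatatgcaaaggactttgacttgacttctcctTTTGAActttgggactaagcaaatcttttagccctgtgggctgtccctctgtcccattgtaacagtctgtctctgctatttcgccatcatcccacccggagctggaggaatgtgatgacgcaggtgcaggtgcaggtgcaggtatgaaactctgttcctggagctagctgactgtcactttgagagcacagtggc
Irf2bp2: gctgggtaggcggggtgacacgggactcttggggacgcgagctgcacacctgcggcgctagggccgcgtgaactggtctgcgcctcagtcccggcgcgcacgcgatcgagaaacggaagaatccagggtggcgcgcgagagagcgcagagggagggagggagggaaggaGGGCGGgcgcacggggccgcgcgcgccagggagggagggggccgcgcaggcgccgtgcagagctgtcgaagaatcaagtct
Sun2: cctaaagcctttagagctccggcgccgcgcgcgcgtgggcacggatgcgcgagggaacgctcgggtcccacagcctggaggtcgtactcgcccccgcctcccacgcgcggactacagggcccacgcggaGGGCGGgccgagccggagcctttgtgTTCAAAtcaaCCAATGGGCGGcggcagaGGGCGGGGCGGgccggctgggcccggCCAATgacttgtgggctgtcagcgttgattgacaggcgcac

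The Sox4 sequence held 4 NF-Y boxes, 8, 47, 104 and 171 bases before the start, and no other searched motif. This RefSeq start lies 14 bases inside the gene as annotated in GENCODE, so the box at 8 bases falls within that annotation. The Slc22a3 sequence held 1 cell cycle homology region 195 bases before the start, and the Irf2bp2 sequence 1 GC box at 81 bases. The Sun2 sequence held 4 GC boxes at 62, 67, 80 and 121 bases, NF-Y boxes at 41 and 85 bases and a cell cycle homology region at 95 bases. The GC content was 50.8% for Sox4, 51.2% for Slc22a3, 71.6% for Irf2bp2 and 70.8% for Sun2, against a median of 59.6% over the 11388 tested genes with such a sequence. Of those 11388 sequences, 36.1% held an NF-Y box, 57.5% a GC box, 10.9% a cell cycle homology region, 11.02% a RUNX core, 8.3% an E-box, 4.5% an AP-1 site and 2.6% a cyclic AMP element. Of the 325 such sequences of genes with a positive contrast at an unadjusted p under 0.05, 34.5% held an NF-Y box and 64.6% a GC box, and of the 294 with a negative one 31.6% and 55.8%. A match describes letters in this window and is not evidence of a bound site.

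Each library held between 22374794 and 38216775 reads in genes. Genes that define LT-HSCs were present in all 14 libraries: Hlf at 249 to 407 CPM, Mecom at 181 to 355 CPM and Procr at 170.2 to 424 CPM. Some libraries stood apart from their groups. The 15 neutrophil markers summed to 15984 CPM in Selp low mouse 4, 21405 CPM in Selp high mouse 4 and 13016 CPM in Selp low-derived replicate 2, against 307 to 6592 CPM in the other 11 libraries. Selp low-derived replicate 2 also stood alone on the third principal component (score 81.2, others -37.9 to 24.1), and Selp high-derived replicate 1 on the fourth (71.0, others -28.8 to 17.5). Gene and list values were recomputed with each library left out in turn. Large moves and changes of sign are given for many of them, and a value without a range need not be stable.

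No gene passed the test of the contrast by edgeR's quasi-likelihood test at a Benjamini-Hochberg adjusted p under 0.05 (0% of 16878 genes), and limma voom called none either. By edgeR, 874 genes (5.18%) had an unadjusted p under 0.05, 420 with a positive contrast (2.49%) and 454 with a negative one (2.69%). DESeq2 called 11 genes of the 14223 to which it gave an adjusted p (0.0773%): Sox4, Myc, Irf2bp2, Mdga1, Slc22a3 and Tmprss3 with a positive contrast, and Igip, Cntn1, Ubxn2b, Sun2 and Igkv14-126 with a negative one. The edgeR adjusted p was 0.879 for 10 of them and 0.959 for Igkv14-126. Data were simulated for the same number of genes and libraries, with a spread set by expression level. They held no shared mice and no outlying libraries, and only genes averaging at least 1 log2 CPM were changed. In them edgeR recovered 86 of 100 genes with a true contrast of 2 and 23 of 100 with a true contrast of 1. The values below are therefore descriptions of single genes and lists. A DESeq2 call named below was not shared by edgeR or limma voom, and "higher" or "lower" refers to the group means.

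The genes described individually are the 4 given ones, the 11 called by DESeq2 and the 12 protein-coding genes of smallest p in each direction, 26 genes in all after overlap, 13 in each direction. Since most were picked by the contrast's own p, their sizes can be overstated and are given as a description. In 17 of the 26 the difference had opposite signs in the 2 stages with a size of at least 0.25 in both. In 3 the difference after transplantation was under 0.25 and smaller than the one before (Myc, Slc22a3 and Kcnk12), in 5 the reverse held (Sun2, Cd151, Adgrg7, Cntn1 and Ubxn2b). Igkv14-126, with no reads in the Selp high-derived libraries, is described by its levels alone. The other 25 kept the sign of their contrast and an unadjusted edgeR p of at most 0.0120 when any 1 library was left out. Of the 26 genes, 24 met the rule of smallest p in these same libraries. The choice favours such stability, so it lends no support.

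**Figure D1:**
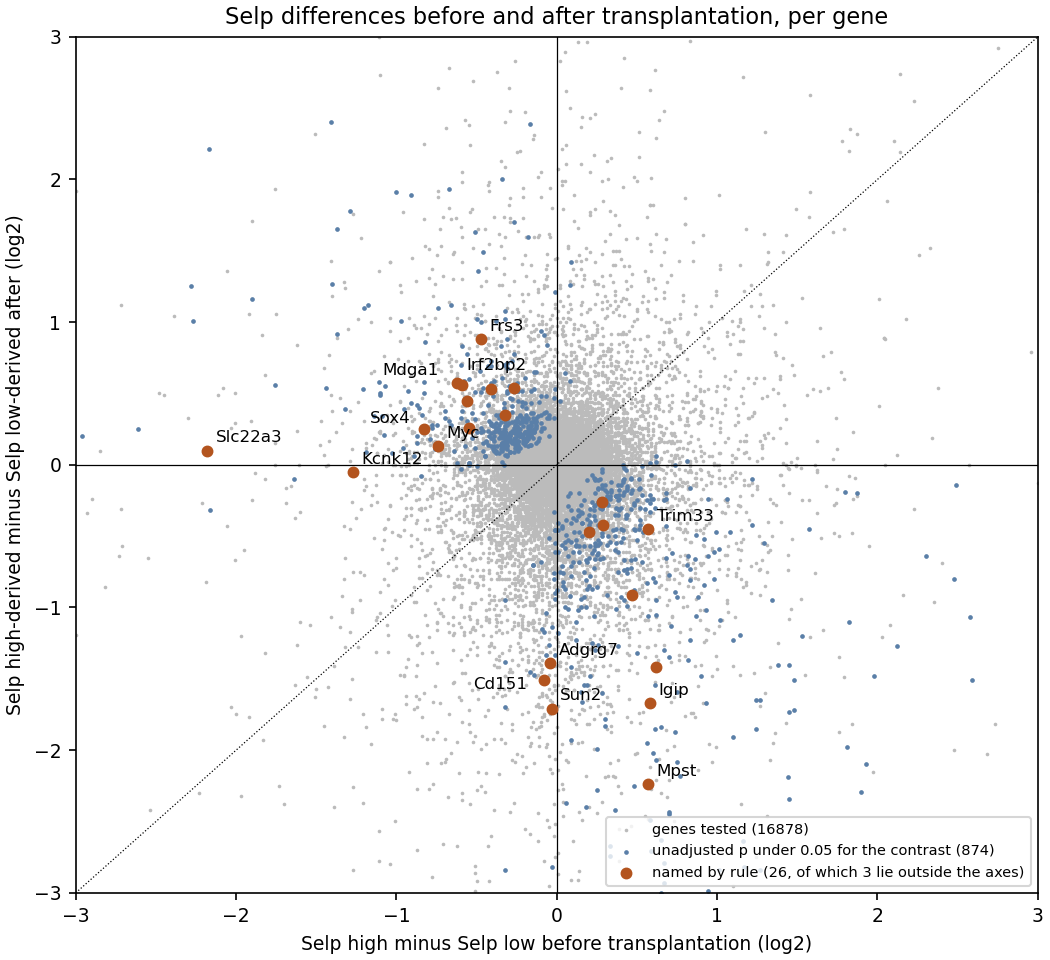
Each point is a gene: its Selp high minus Selp low difference before transplantation (horizontal, log2) against its Selp high-derived minus Selp low-derived difference after (vertical, log2), over 16878 genes. Genes on the dotted diagonal have a contrast of 0; the 874 genes with an unadjusted p under 0.05 lie off it to both sides, and 23 of the 26 individually described genes fall inside the axes.

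Sox4 was lower in Selp high cells before transplantation and not after it. Its level was 168, 175, 160.5 and 140.5 CPM in the 4 Selp low libraries and 78.1, 119, 95.6 and 70.2 CPM in the 4 Selp high libraries. After transplantation it was 247, 225 and 210.3 CPM in the Selp low-derived and 234, 258 and 320.0 CPM in the Selp high-derived libraries. Before transplantation every Selp high library lay below every Selp low one, while after it the groups overlapped and all 6 libraries lay above all 8 earlier ones. The difference was -0.83 ± 0.15 (SE) before and 0.25 ± 0.17 after, a contrast of 1.08 ± 0.23 that DESeq2 called (adjusted p = 0.0318). The group mean was 1.60 higher after than before in the Selp high arm and 0.50 higher in the Selp low arm.

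Myc showed the same order with a smaller contrast. It was measured at 394, 437, 463 and 424 CPM in Selp low and at 205, 271, 313 and 239.6 CPM in Selp high libraries, which do not overlap. The Selp low-derived libraries held 445, 346 and 404 CPM and the Selp high-derived ones 397, 411 and 498 CPM. After transplantation the groups overlapped, and all 6 libraries lay above every Selp high library of before. The difference went from -0.74 ± 0.13 to 0.13 ± 0.15, with a contrast of 0.87 ± 0.20 (DESeq2 adjusted p = 0.0493). The Selp low arm had nearly the same mean at both stages (-0.11 after minus before) and the Selp high arm was 0.77 higher after.

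Slc22a3, which encodes an organic cation transporter of low specificity, had the largest pre-transplant difference among the 3 individually described genes with a lost difference. It was at 18.1, 32.6, 32.1 and 28.0 CPM in Selp low and at 4.13, 7.21, 4.72 and 8.40 CPM in Selp high libraries. After transplantation it reached 145, 42.0 and 72.2 CPM in Selp low-derived and 89.0, 75.3 and 114 CPM in Selp high-derived libraries. All libraries after transplantation were above all before, and the 2 derived groups overlapped. The difference of -2.18 ± 0.35 before stood against 0.10 ± 0.37 after, giving a contrast of 2.28 ± 0.51 (DESeq2 adjusted p = 0.0173). The contrast ranged from 1.95 without Selp low-derived replicate 2 to 2.88 without Selp low-derived replicate 1. The gene's exons overlap those of Plg on the other strand. The counts do not use strand, so reads in the overlap can be missing from them.

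Kcnk12, a member of the two-pore potassium channel family, followed Slc22a3 at a lower level. It was at 3.50 to 4.51 CPM in Selp low and 1.31 to 2.34 CPM in Selp high libraries before, and 13.6 to 18.3 and 12.3 to 17.0 CPM in their respective derived libraries. The groups did not overlap before and overlapped after. Its contrast was 1.22 ± 0.32, which DESeq2 did not call (adjusted p = 0.115). Tmprss3, a membrane serine protease, was near the limit of detection in Selp high cells, at 0, 0, 0.0688 and 0.158 CPM, against 0.371 to 1.23 CPM in Selp low cells. It was at 1.26 to 2.34 CPM and 2.14 to 3.66 CPM in the respective derived libraries, which overlap. Its fitted contrast of 4.33 ± 0.98 (DESeq2 adjusted p = 0.0245) rests on very few reads before transplantation.

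**Figure D2:**
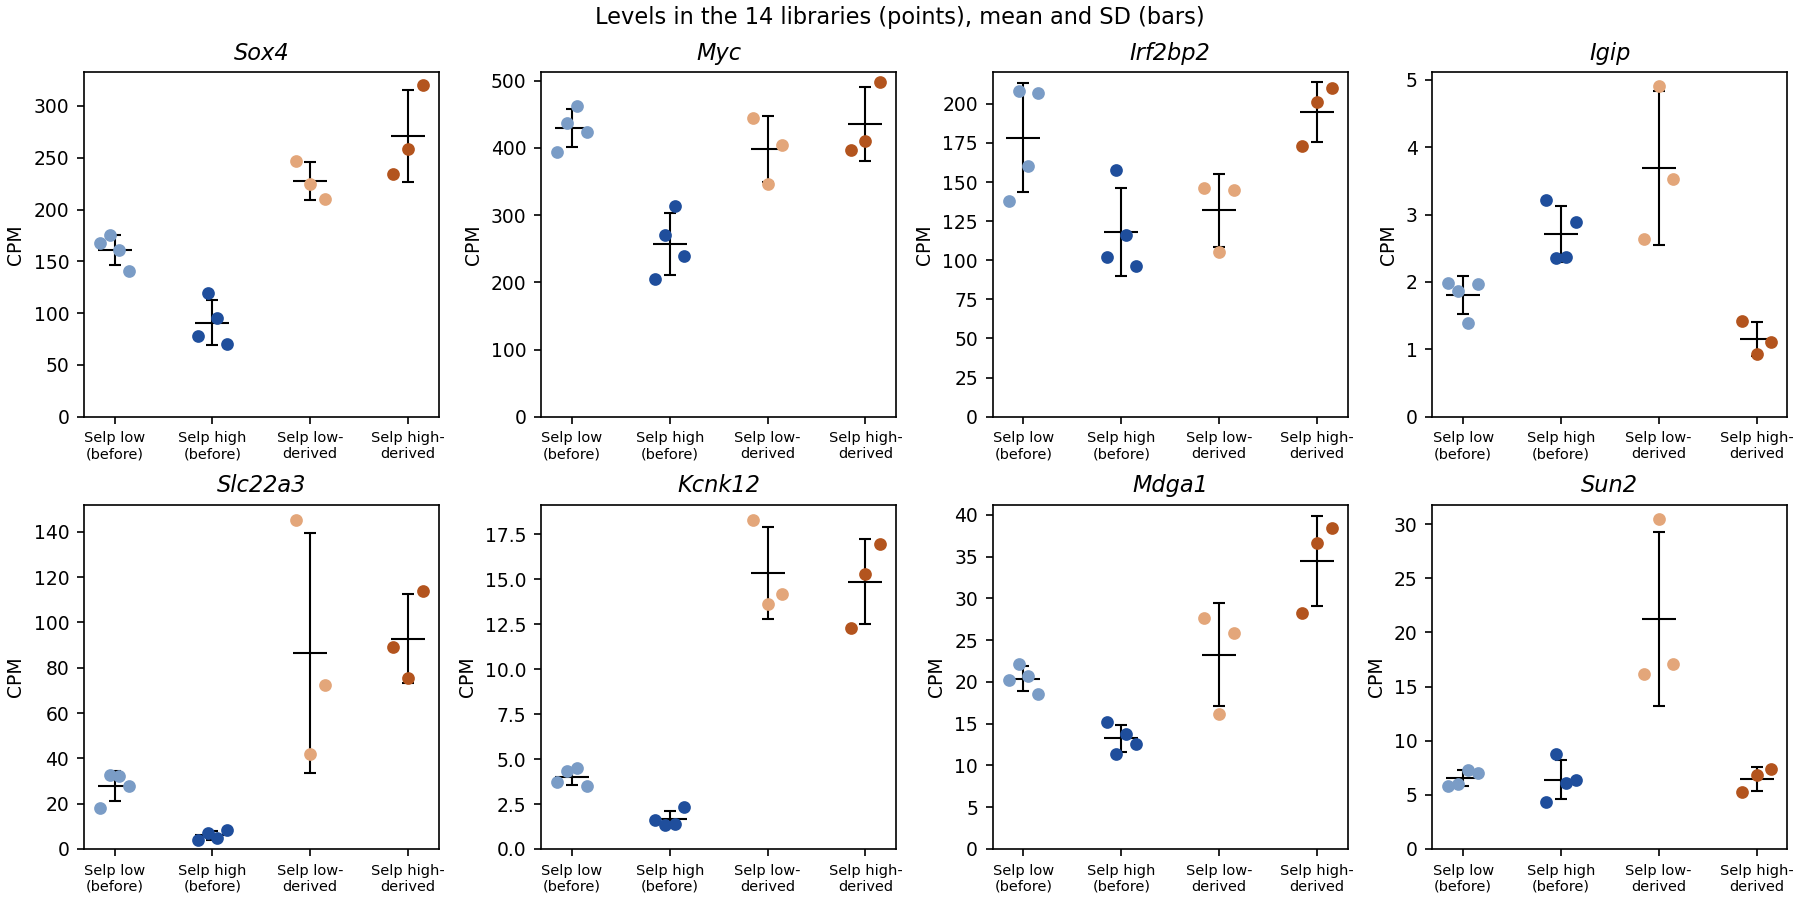
CPM (vertical) of 8 genes in the 14 libraries (points) by group (horizontal), with group mean and SD (bars). The Selp high libraries lie below the Selp low ones for Sox4, Myc, Slc22a3, Kcnk12 and Mdga1 before transplantation, and the derived groups overlap for the first 4 of these; Sun2 is high in the 3 Selp low-derived libraries.

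A second group of genes was lower in Selp high cells before transplantation and higher in their progeny after it. Irf2bp2 was at 138, 208, 160.3 and 207 CPM in Selp low and at 102, 158, 116 and 96.1 CPM in Selp high libraries. It was at 146, 105 and 145 CPM in Selp low-derived and at 173, 201 and 210.0 CPM in Selp high-derived libraries. The groups overlapped before transplantation, although Selp high was lower in each of the 4 mice, and they were apart after it. The difference moved from -0.59 ± 0.18 to 0.56 ± 0.20, with a contrast of 1.16 ± 0.27 (DESeq2 adjusted p = 0.0493). Its Selp low arm was 0.43 lower and its Selp high arm 0.74 higher after than before, so both arms contributed. Its paralog Irf2bp1 had a contrast of 0.57 ± 0.26 (DESeq2 adjusted p = 0.743). The groups of Irf2bp1 overlapped at both stages, although before transplantation Selp high was lower in each of the 4 mice.

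Mdga1, which encodes a membrane-anchored adhesion protein, was apart in both stages and in opposite directions. It was at 20.2, 22.2, 20.7 and 18.5 CPM in Selp low and at 15.2, 11.4, 13.8 and 12.6 CPM in Selp high libraries. After transplantation it was at 27.7, 16.2 and 25.9 CPM in Selp low-derived and 28.3, 36.6 and 38.4 CPM in Selp high-derived libraries. The gap after transplantation was narrow, between 27.7 and 28.3 CPM. The contrast was 1.18 ± 0.26 (DESeq2 adjusted p = 0.0318).

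Other genes of the same form were not called by DESeq2. Paqr5, a membrane progestin receptor, was at 34.3 to 49.2 CPM in Selp low and 20.2 to 32.7 CPM in Selp high libraries before, and 16.5 to 20.3 and 23.5 to 27.8 CPM in their respective derived libraries, with a contrast of 1.01 ± 0.24 and groups apart at both stages. Its Selp low arm was 1.12 lower after and its Selp high arm nearly level at -0.10, the opposite allocation to that of Myc. Lat, a signalling adaptor of the T cell receptor, had a contrast of 0.93 ± 0.23, also with the Selp low arm lower after transplantation (-0.89) and the Selp high arm level (0.05). Plppr3 (0.66 ± 0.17) and Frs3, an adaptor of fibroblast growth factor receptors (1.34 ± 0.37), were apart in both stages as well. Mrgpre, an orphan receptor of the Mas-related family, was apart before only and had a contrast of 0.80 ± 0.20, while Msl3l2 was apart after only and had 0.81 ± 0.21. Frs3, Plppr3 and Mrgpre have exons that overlap other genes on the opposite strand.

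Igip went the other way. It was at 1.99, 1.87, 1.39 and 1.97 CPM in Selp low and at 3.21, 2.36, 2.37 and 2.89 CPM in Selp high libraries. After transplantation it was at 2.64, 4.91 and 3.52 CPM in Selp low-derived and 1.42, 0.925 and 1.11 CPM in Selp high-derived libraries. The groups were apart at both stages, with Selp high above before and Selp high-derived below after. The difference went from 0.58 ± 0.27 to -1.67 ± 0.32, a contrast of -2.25 ± 0.42 that had the smallest DESeq2 adjusted p of the 11 called genes (0.0170). The arms moved in opposite directions, 0.97 higher after in Selp low and 1.19 lower in Selp high (-1.19), and leaving out any 1 library kept the contrast between -2.45 and -1.99. Igip is a gene of low level here, at most 4.91 CPM.

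Trim33, a ubiquitin ligase and corepressor in transforming growth factor beta signalling, was apart in both stages in the same order as Igip, at 11.3 to 14.1 CPM in Selp low and 14.4 to 24.8 CPM in Selp high libraries before, and 24.3 to 33.7 and 20.01 to 22.01 CPM in their respective derived libraries. Its contrast was -1.01 ± 0.27. Eif4a2, an RNA helicase of translation initiation, was higher in the Selp high library of each of the 4 mice before (166 to 184 against 136 to 153 CPM) and lower on average after (80.9 to 94.0 against 91.8 to 114 CPM), with a contrast of -0.54 ± 0.14. The groups of Eif4a2 were apart before and overlapped after, and its exons hold small nucleolar RNA genes. Gm45871 was apart in both stages with a contrast of -0.71 ± 0.20, and BC005537 (-1.38 ± 0.35) was apart after only. Slc35g2, of a nucleotide sugar transporter family, had a contrast of -2.04 ± 0.58 at a level of 0.320 to 4.56 CPM. DESeq2 called none of these 5 genes, with adjusted p-values of 0.114 to 0.271.

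Mpst, a sulfurtransferase that generates hydrogen sulfide, shows how 1 library can set a value. It was at 3.55, 13.1 and 2.57 CPM in Selp low-derived and 0.977 to 1.64 CPM in Selp high-derived libraries, and at 0.588 to 2.02 CPM before transplantation. Its contrast was -2.81 ± 0.76 with all libraries and -1.74 without Selp low-derived replicate 2, the library at 13.1 CPM.

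A further group had little or no Selp difference before transplantation and a larger one after it. Sun2, which encodes an inner nuclear membrane protein that links the nuclear lamina to the cytoskeleton, was at 5.80, 5.99, 7.29 and 7.02 CPM in Selp low and 4.36, 8.78, 6.13 and 6.38 CPM in Selp high libraries. It was at 16.2, 30.5 and 17.0 CPM in Selp low-derived and 5.23, 6.85 and 7.34 CPM in Selp high-derived libraries. The 3 Selp low-derived libraries stood above all 11 others, and the Selp high-derived ones lay within the pre-transplant range. The difference was -0.03 ± 0.25 before and -1.71 ± 0.29 after, with a contrast of -1.69 ± 0.38 (DESeq2 adjusted p = 0.0318). Leaving out Selp low-derived replicate 2, the library at 30.5 CPM, gave -1.33.

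Cd151, a tetraspanin that binds laminin-receptor integrins, and Adgrg7, an adhesion G-protein-coupled receptor, had the same form. Cd151 was at 9.11 to 14.5 CPM in the 8 libraries before transplantation, at 23.9, 38.9 and 19.4 CPM in Selp low-derived and at 10.8, 8.11 and 9.90 CPM in Selp high-derived libraries. Its contrast was -1.43 ± 0.34 (DESeq2 adjusted p = 0.0613). Adgrg7 was at 6.77 to 11.5 CPM before, 22.2, 17.6 and 18.3 CPM in Selp low-derived and 10.5, 6.10 and 5.63 CPM in Selp high-derived libraries, with a contrast of -1.34 ± 0.35 (DESeq2 adjusted p = 0.114). In both, only the Selp low-derived libraries lay above the pre-transplant range. Selp low-derived replicate 2, the library with the most neutrophil marker RNA of its stage, was the highest of its group for Sun2 and Cd151 but the lowest for Adgrg7.

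Ubxn2b, a cofactor of the segregase p97, differed in the other arm. It was at 33.3 to 48.2 CPM in all Selp low, Selp high and Selp low-derived libraries and at 26.1, 25.1 and 25.7 CPM in the Selp high-derived ones, below all others. Its difference was 0.20 ± 0.10 before transplantation and -0.47 ± 0.12 after it. Before, Selp high was higher in each of the 4 mice, though by only 0.02 in mouse 1 and in mouse 4. The contrast was -0.67 ± 0.16 (DESeq2 adjusted p = 0.0318) and stayed between -0.72 and -0.62 with any 1 library left out. Cntn1, a neuronal adhesion molecule, was at 3.81 to 12.6 CPM before transplantation with no Selp difference. It was at 0.952, 1.23 and 0.815 CPM in Selp low-derived and at 0, 0.210 and 0 CPM in Selp high-derived libraries. Both derived groups were thus far below the earlier level, and the contrast of -3.89 ± 1.01 (DESeq2 adjusted p = 0.0318) became -7.82 without Selp high-derived replicate 2, the only one of its group with reads. Igkv14-126, an immunoglobulin light-chain variable segment and the remaining DESeq2 call (adjusted p = 0.0384), was at 117 CPM in Selp low mouse 2, 38.2 CPM in Selp low mouse 4 and 11.4 CPM or less elsewhere. It was at 0 in all Selp high-derived libraries, so a fitted fold of this gene is no measure of its size and none is given beside these levels.

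**Figure D3:**
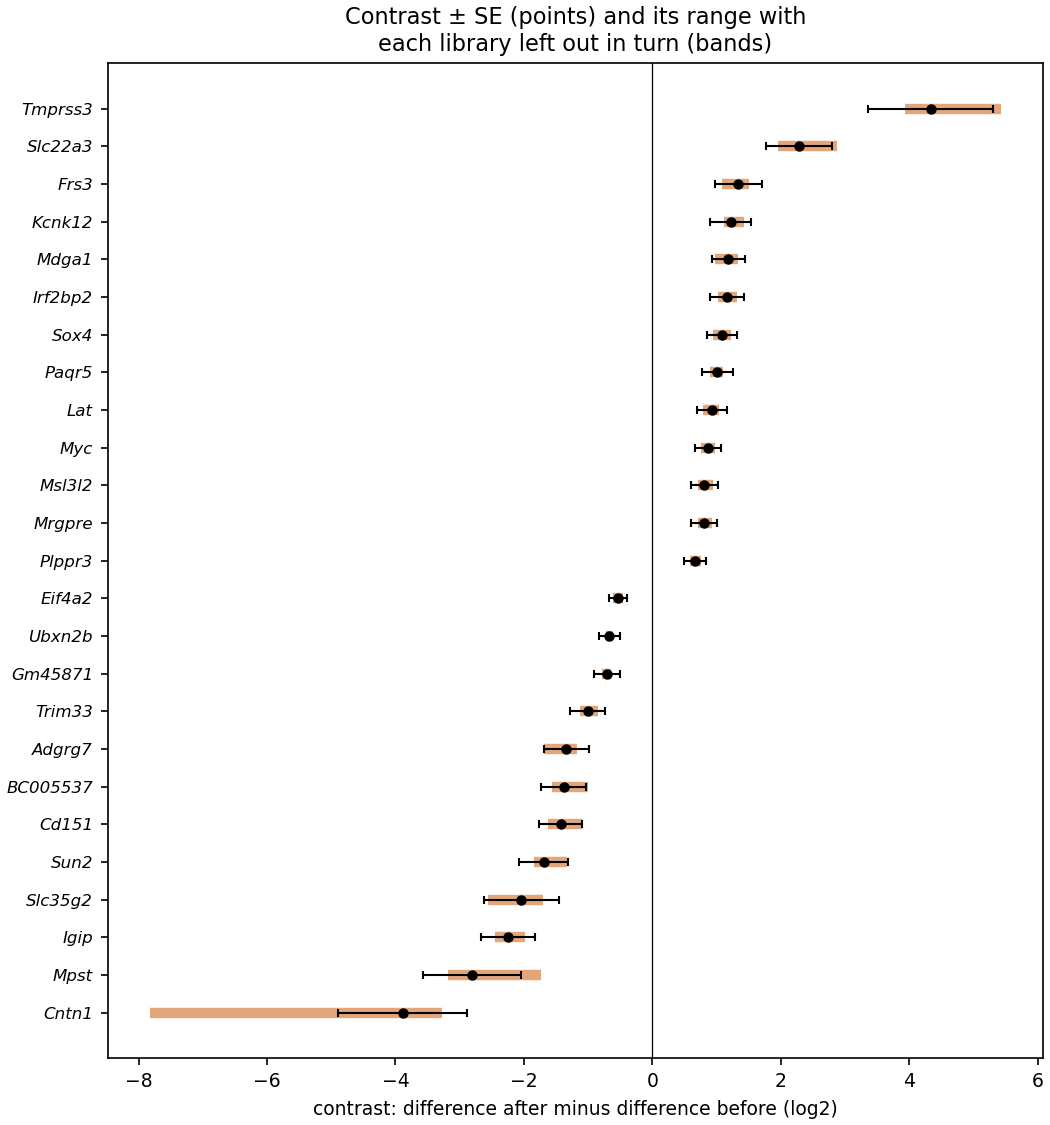
The contrast (horizontal, log2) of 25 individually described genes, all but Igkv14-126, as point with SE (bars) and with its range when each of the 14 libraries is left out in turn (band). No band reaches 0, which the choice of most of these genes by their p in the same libraries favours. The widest band, of Cntn1, runs from -7.82 to -3.28.

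Across the transcriptome, the lists of the 2 stages overlapped at about the background share. Of 863 genes with an unadjusted edgeR p under 0.05 before transplantation (5.11%) and 765 after it (4.53%), 43 were in both lists, 4.98% of the first and 5.62% of the second, close to the 4.53% and 5.11% of all genes. The first list held 435 genes higher in Selp high cells (2.58%) and 428 lower (2.54%), and the second 271 higher (1.61%) and 494 lower (2.93%) in Selp high-derived cells. In 25 of the 43 the signs were opposite and in 18 the same. The groups did not overlap for 520 genes before (3.08%), 263 of them lower in Selp high (1.56%), and 1745 after (10.3%), where fewer libraries make separation more frequent. They were apart at both stages in opposite directions for 23 genes (0.136%), 14 of them lower then higher and 9 higher then lower, and in the same direction for 22 genes (0.130%). Reversal with separated groups was thus about as frequent as persistence.

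The 874 genes with an unadjusted p under 0.05 were sorted by their 2 differences, with 0.25 as the bound of a small difference. In 229 (26.2%) the smaller of the differences was under the bound and was the one after transplantation, a class called lost, and in 254 (29.1%) it was the one before, a class called gained. Of these, 193 of the 229 and 222 of the 254 had a larger difference of at least 0.25, and the rest were small at both stages. In 376 (43.0%) both reached 0.25 with opposite signs, and in 2 and 13 both did with the same sign, the later one being smaller or larger. Over all 16878 genes the same classes held 39.4%, 41.6%, 10.0%, 3.42% and 5.56%. A small p of the contrast selects genes with large opposite differences, so nothing is read from the 43.0% against 10.0%. Sox4, with 0.25 after transplantation, sits at the edge of the reversed class, and Polg, with 0.24, just on the other side. In the lost class, 154 of 229 (67.2%) had a positive contrast, that is, Selp high was lower before, against 55.1% of that class over all genes. The Selp high arm moved more between stages than the Selp low arm in 150 (65.5%), against 54.9% over all genes. Both shares come from genes picked by the contrast's own p and are given without a range over left-out libraries. Nothing is read from them either. With 0.15 as the smallest difference the classes held 97, 134 and 624 genes, and with 0.35 they held 284, 322 and 260.

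Among the protein-coding genes closest to Myc in their 4 group means were Eif2ak4, a kinase that senses amino acid shortage, Polg, the mitochondrial DNA polymerase, Osbpl5 and Ydjc. Their distance to Myc, after centring each gene's 4 mean log2 CPM values, was 0.224, 0.232, 0.233 and 0.245. Eif2ak4, for example, was at 44.6 to 55.6 CPM in Selp low and 32.0 to 44.4 CPM in Selp high libraries before, and 40.7 to 57.8 and 51.4 to 62.1 CPM in their respective derived libraries, with a contrast of 0.61 ± 0.22.

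The lists of related genes are described by the number of members with an unadjusted edgeR p under 0.05 and by their median contrast. These counts come from the main fit, which has no term for the mouse. A fit with such a term before transplantation gave 1429 genes with such a p (8.47%), so counts of list members can differ there. Over all tested genes the median contrast was 0.01, 2.49% had such a p with a positive contrast and 2.69% with a negative one. The sign alone was positive for 8585 of 16878 genes and negative for 8293. Before transplantation 7989 were higher in Selp high cells and 8889 lower. Members of a list share the same libraries and are not replicates of each other. The 25 MYC network factors, Myc included, had a median of 0.02, from -0.02 without Selp high mouse 3 to 0.10 without Selp high mouse 4. Apart from Myc, only Kat5, an acetyltransferase that works with MYC, had such a p in this list (0.59 ± 0.17). The 40 genes of ribosome biogenesis and other MYC-responsive functions had a median of 0.15 (0.04 without Selp low-derived replicate 2), with 1 positive and 3 negative. One of the negative genes was Npm1, a nucleolar chaperone (-0.57 ± 0.22). Both list medians were below the contrast of Myc itself. Myc was given as a marker of this contrast, so the gap can follow from that choice and nothing is read from it. Of 7 SOX factors only Sox4 had an unadjusted p under 0.05, and of 16 interferon regulatory factors and their cofactors only Irf2bp2 and Irf2bp1. The SOX factor Sox13 also had such a p in the fit with a term for the mouse.

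Some progenitor genes also had a positive contrast. Of 22 multipotent progenitor genes 4 had an unadjusted p under 0.05, all positive, beside 2.49% of all genes. These were Sox4 and Myc, which were given as markers of the contrast and so lend no support, and Flt3 and Cd27. The list's median was -0.04 and lay between -0.12 and 0.14 with single libraries left out. Of 23 lymphoid priming genes 4 were positive, again Sox4 and Flt3, which the lists share, and Tcf3 and Lax1. The median of this list was 0.15, and it was -0.02 when Selp high-derived replicate 3 was left out and 0.25 when Selp low-derived replicate 2 was. Flt3, the cytokine receptor that marks the exit from the stem cell pool, was at 10.5, 30.1, 12.5 and 18.8 CPM in Selp low and 5.05, 9.79, 7.81 and 10.7 CPM in Selp high libraries. It was at 20.4, 18.6 and 14.98 CPM in Selp low-derived and 28.6, 21.6 and 30.5 CPM in Selp high-derived libraries. The groups overlapped before, although Selp high was lower in each of the 4 mice. They were apart after, in the opposite order, and the contrast was 1.69 ± 0.47 (DESeq2 adjusted p = 0.161). The 25 myeloid priming genes had a median of -0.43, and none had such a p in the main fit. In the fit with a term for the mouse, Lyz2 and Fcgr3, with a negative contrast, and Csf3r, with a positive one, had such a p. The list's median was -0.75 without Selp low mouse 4, -0.13 without Selp high mouse 4 and -0.11 with both post-transplant outlying libraries left out.

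Most cell cycle genes had contrasts of the same sign. All 42 G2 and M phase genes had a positive contrast, with a median of 0.68, and all 42 were lower in Selp high before transplantation (median -0.53), whereas 38 of 42 were higher in Selp high-derived cells after it (median 0.16). None of the 42 reached an unadjusted p under 0.05 for the contrast in the main fit, which has no term for the mouse. Over all tested genes, 8585 of 16878 contrasts were positive. Plk1, a mitotic kinase, was at 24.4, 21.5, 12.7 and 41.2 CPM in Selp low and 8.22, 12.4, 8.16 and 18.4 CPM in Selp high libraries. It was at 117, 49.4 and 72.0 CPM in Selp low-derived and 68.8, 67.3 and 115 CPM in Selp high-derived libraries. The groups overlapped at both stages, although before transplantation Selp high was lower in each of the 4 mice. Every derived library lay above every earlier one. The contrast of Plk1 was 1.15 ± 0.56. In the fit with a term for the mouse it was 1.11, with an unadjusted edgeR p of 0.0177. In that fit Kif2c also came under 0.05 (0.0400), while Bub3 did not (0.125).

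Of 37 S phase genes 35 had a positive contrast, with a median of 0.48. An unadjusted p under 0.05 was reached by 4, all positive, beside 2.49% of all genes. These were Cdt1 and the minichromosome maintenance genes Mcm3 and Mcm7, which license replication origins, and the chromatin assembly gene Chaf1b. Cdt1 was at 28.6 to 45.6 CPM in Selp low and 19.0 to 26.7 CPM in Selp high libraries before, and 54.6 to 108 and 76.6 to 95.9 CPM in their respective derived libraries, with a contrast of 0.74 ± 0.30. The groups of Cdt1 were apart before and overlapped after. Both lists were highest, among the pre-transplant libraries, in those of mouse 4, and leaving out Selp low mouse 4 brought the G2 and M median to 0.34 while leaving out Selp high mouse 4 brought it to 1.07. The S phase median was 0.29 without Selp low-derived replicate 2, which had the lowest value of its stage for both lists, and 0.73 without Selp low-derived replicate 1, which had the highest. Neutrophil marker RNA was highest in Selp low-derived replicate 2 and the mouse 4 libraries. The 13 erythroid markers were as well, summing to 4598 CPM in that library and to 5304 and 4629 CPM in Selp low and Selp high mouse 4, against 2404 to 3606 CPM in the others. B cell markers summed to 6261 and 2701 CPM in the mouse 4 libraries, against 95.4 to 1504 CPM elsewhere. The part of these cells in the result was not tested.

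**Figure D4:**
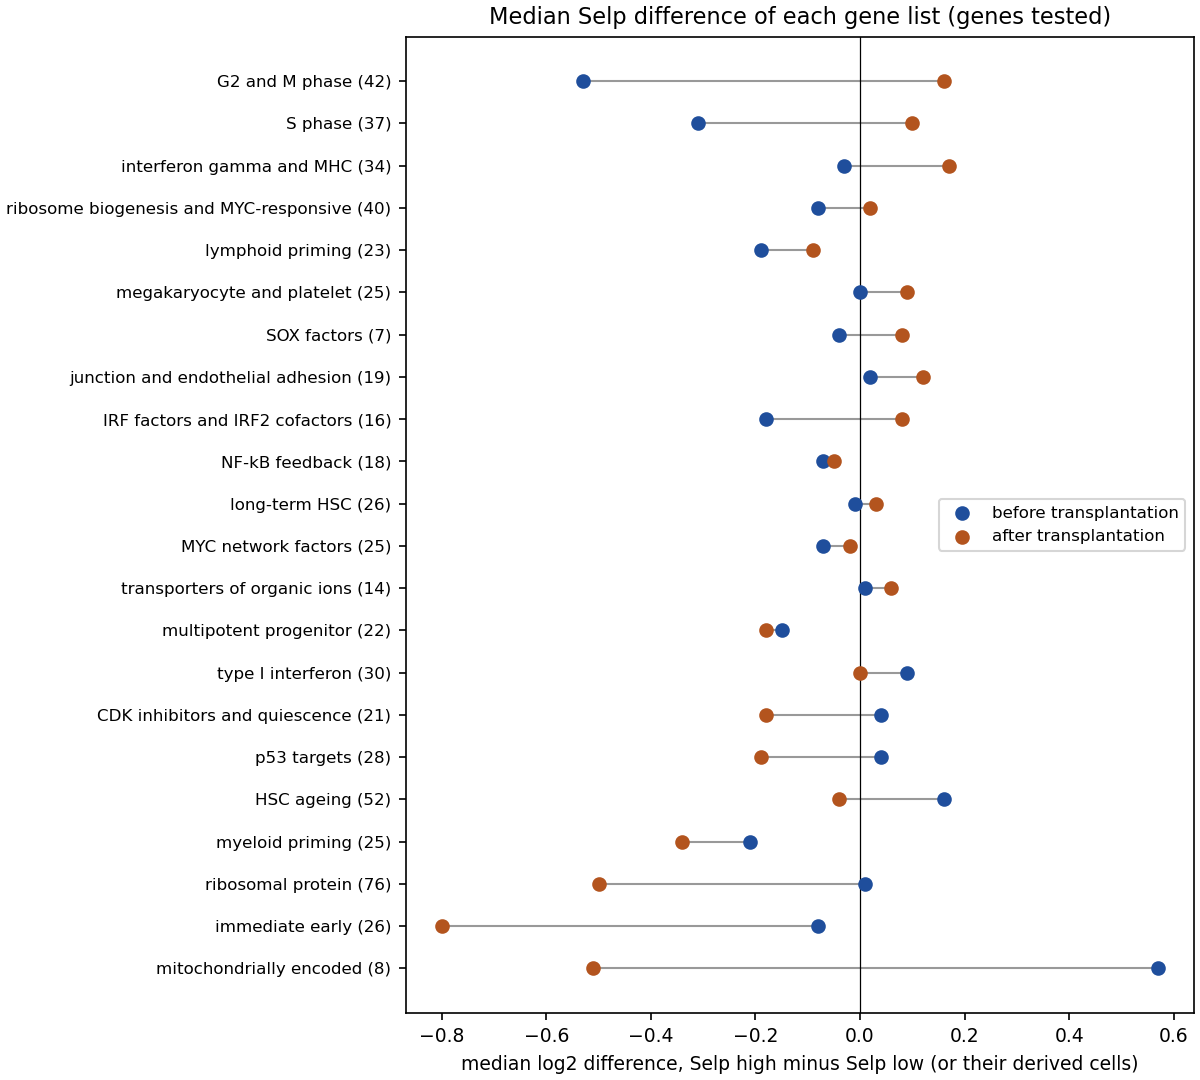
Median Selp difference (horizontal, log2) of each of 22 gene lists before (blue) and after (orange) transplantation, with the number of tested genes in brackets and lists ordered by median contrast. The G2 and M and S phase medians lie below 0 before and above 0 after; the HSC ageing, ribosomal protein and mitochondrially encoded medians lie above 0 before and below 0 after.

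Genes known to be higher in old HSCs had the reverse order. Of 52 such genes 42 had a negative contrast, with a median of -0.24 that ran from -0.41 to -0.12 when replicates 1 and 2 of the Selp low-derived group were left out in turn. They were higher in Selp high cells before transplantation (median 0.16, 41 of 52) and divided after it (median -0.04, 22 of 52 higher). An unadjusted p under 0.05 was reached by Alcam, Gda, Jam2, Mt1 and Fosb, negative (2.69% of all genes), and by Itgb3, positive (2.49%). Fosb had a contrast of -3.60, and -1.18 without Selp low-derived replicate 2, where its unadjusted edgeR p was 0.290. Jam2, a junctional adhesion molecule, was at 166, 171, 178 and 170.0 CPM in Selp low and 319, 316, 324 and 246 CPM in Selp high libraries, which were far apart. It was at 31.5, 61.2 and 59.3 CPM in Selp low-derived and 58.0, 53.3 and 44.1 CPM in Selp high-derived libraries, so the groups overlapped at a level below that of both earlier groups. The difference went from 0.81 ± 0.17 to 0.03 ± 0.20, with a contrast of -0.78 ± 0.26 (DESeq2 adjusted p = 0.489).

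Itgb3, the platelet and stem cell integrin subunit, had no clear difference before (258 to 406 against 269 to 397 CPM) and was at 38.6 to 44.6 CPM in Selp low-derived against 55.1 to 64.4 CPM in Selp high-derived libraries, which were apart. Its contrast was 0.68 ± 0.22. It was 1 of 3 genes of the 25 megakaryocyte and platelet genes with an unadjusted p under 0.05, all positive, beside 2.49% of all genes. Gp5, another of them and a subunit of the platelet receptor for von Willebrand factor, was at 24.3 to 31.7 CPM in Selp low and 10.1 to 17.9 CPM in Selp high libraries, which were apart, and at 25.3 to 59.5 and 37.3 to 57.2 CPM in the derived groups, which overlapped. Its contrast was 1.29 ± 0.36. The list's median was 0.14, with 0.26 without Selp high mouse 1 and -0.11 with both post-transplant outlying libraries left out.

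Selp itself was not among the genes with a contrast. Its mRNA was at 477 to 669 CPM in Selp low and 615 to 764 CPM in Selp high libraries before, and 243 to 289 and 284 to 315 CPM in their respective derived libraries. The groups overlapped at both stages, although before transplantation Selp was higher in the Selp high library of each of the 4 mice. The difference was 0.31 ± 0.12 before and 0.16 ± 0.14 after. The contrast of Selp was -0.15 ± 0.19, from -0.24 to -0.07 with single libraries left out. Its ligand gene Selplg was at 223 to 281 CPM in Selp low and 166 to 229 CPM in Selp high libraries before, and 206 to 248 and 222 to 272 CPM in their respective derived libraries, with a contrast of 0.43 ± 0.18. Kit, the stem cell factor receptor used in the sort, had a contrast of 0.60 ± 0.21 and was higher in all Selp high-derived (1373 to 1480 CPM) than in all Selp low-derived libraries (947 to 1186 CPM), with overlapping groups before.

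Lists with a negative median moved with single libraries. The 8 mitochondrially encoded genes all had a negative contrast (median -1.12, and -0.69 without Selp high mouse 4). Of these 4 had an unadjusted p under 0.05, beside 2.69% of all genes. The list was highest in Selp low-derived replicate 2 and in mouse 4's libraries. Negative values also held for 75 of 76 ribosomal protein genes (median -0.54), 5 of them with such a p, beside the same 2.69%. The median was -0.18 without Selp low-derived replicate 2. The 26 immediate early genes, which respond to stress and handling within minutes, had a median of -0.70 that became 0.34 without the same library. In that library Fos was at 1321 CPM, against 13.8 and 37.4 CPM in the other Selp low-derived libraries and 14.6 to 186 CPM in the Selp high-derived ones. The 15 neutrophil markers had a median of -1.78, all 15 negative and none with such a p, and -0.70 without that library. How far other cells contribute to these lists was not tested.

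**Figure D5:**
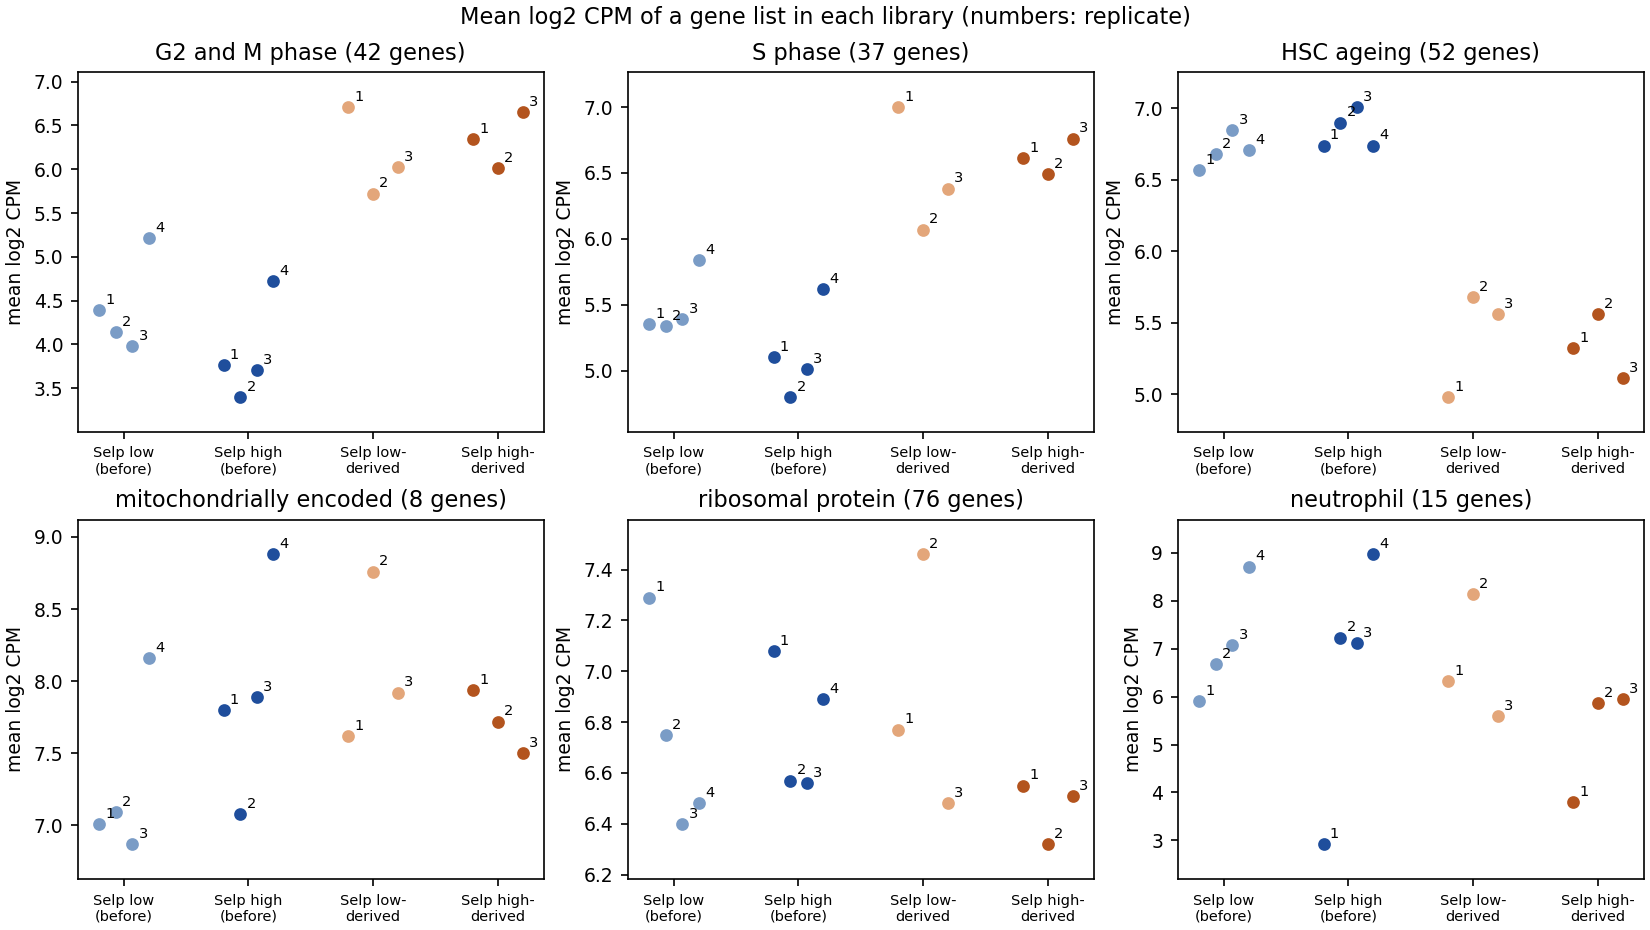
Mean log2 CPM (vertical) of 6 gene lists in each library (points, numbered by replicate) by group (horizontal). Selp low-derived replicate 2 and both libraries of mouse 4 are high for the neutrophil and mitochondrially encoded lists; the cell cycle lists are higher and the HSC ageing list lower in all derived libraries than in all earlier ones.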

How the data were processed

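Poly(A) RNA was amplified with a SMART ultra-low input kit and made into Nextera XT libraries, per the labels' protocols. The authors deposited raw read counts per gene for each library; per the submitters' processing notes the tools were STAR 2.7.0d, Picard 2.23.0 and FastQC 0.11.9, with the build GRCm38. Annotation release and counting options were not given in the sources used here. Counts without regard to strand were used (the strand columns were nearly equal, ratio 0.989 to 0.999). Reads naming no gene were 21.6 to 27.9% per library and were left out. All 55450 identifiers matched GENCODE M21. Counts do not use strand, and reads ambiguous between genes (4.2 to 4.79% per library) were among those left out, so overlap can lower a gene's count. Of the 26 individually described genes 11 overlap another gene's exons, Sox4, Irf2bp2, Sun2 and Cd151 among them.

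Genes were kept by edgeR's filter at a minimum count of 10, scaled by TMM (factors 0.963 to 1.042) and fitted with edgeR 4.0.16 (quasi-likelihood, R 4.3.3) as 4 group means over 14 libraries with 10 residual degrees of freedom, with Benjamini-Hochberg adjustment over 16878 genes. Alternatives were DESeq2 1.42.0, limma 3.58.1 voom with and without quality weights, RLE scaling, other filters on low counts, replicate blocks and leaving out libraries. The method was tested on simulated data with 4 false calls among the unchanged genes. Within each group no libraries were duplicates (chi-square per degree of freedom at least 18.8). Pairs from different groups were not compared in this way.

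Genes named were the 4 given, those called by edgeR or DESeq2, the 12 protein-coding genes of smallest p in each direction among those averaging 1 log2 CPM or more, the leading members of each list and the sort markers; some genes that met these rules are not reported here; the genes like Myc averaged 4 log2 CPM or more. The members and lists were chosen with earlier results of these data known. Names of the 22 biology and 9 marker lists came from general knowledge of the cells. Pre-transplant numbers were taken as mice: same-numbered Selp low and Selp high libraries deviated together (r = 0.29 to 0.53; other pairs -0.40 to 0.05). Post-transplant numbers did not pair (r = -0.05 to 0.02). Whether each post-transplant library is a separate recipient is not stated, so p-values measure the spread between these libraries.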

Additional observations from a re-analysis of the deposited data

Results flagged for a closer look

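Among all 89 genes given with values in the text or chosen from the lists, each group of 4 pre-transplant libraries was examined for a library far from the other 3, by the gap to its neighbour as a share of the group's range (Dixon's test for 4 values). Of 178 groups over 89 genes 5 exceeded its critical value, and chance gives about 1 in 20. In Selp high cells, Cntn1 was at 3.81 CPM in mouse 2 against 10.3 to 11.7 CPM in the other 3 (share 0.882), and its Selp low library of the same mouse was also low at 4.17 CPM. Jam2 was at 246 CPM in Selp high mouse 4 against 316 to 324 CPM (0.906), Selplg at 166 CPM in Selp high mouse 1 against 223 to 229 CPM (0.913), and Ydjc at 26.3 CPM in Selp high mouse 1 against 22.95 to 23.2 CPM (0.916). In Selp low cells, Igip was at 1.39 CPM in mouse 3 against 1.87 to 1.99 CPM (0.830). For Jam2 the low Selp high library lessens the pre-transplant difference, while for Selplg and Igip the low library enlarges it.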

How the results depend on the processing

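No gene was called in the contrast by edgeR under any edgeR setting, by limma voom, or with any 1 library left out (0 to 0 genes); DESeq2 called 11. Before transplantation, where edgeR called 0, DESeq2 called 11 genes, the fit without a filter on low counts 1, and leaving out single libraries 0 to 2. After transplantation, where edgeR also called 0, DESeq2 called 25 genes, voom with quality weights 1 and the fit without both libraries of mouse 4 1; leaving out single libraries called 0 to 0. With the replicate block for mouse, 1 gene was called after transplantation, and 2 with blocks in both stages; the block changed no other call. The number of genes with an unadjusted p under 0.05 in the contrast (874) was 1384 with quality weights, 1567 of 32333 without a filter, 1429 and 1548 with the blocks, 1412 without Selp low mouse 4, 1371 without Selp low-derived replicate 1, 519 without Selp low-derived replicate 2 (388 of the 874 among them) and 520 without the 2 post-transplant libraries that stood apart. The classes of lost, gained and reversed differences (229, 254 and 376 genes) held 483, 486 and 442 with the replicate block for mouse, 18, 45 and 94 at an unadjusted p under 0.01, and 74 to 544, 126 to 533 and 264 to 645 with single libraries left out.

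For the 26 individually described genes, 611 of 623 alternative values kept direction and side of the threshold, 11 passed it with DESeq2, and Igkv14-126 changed sign with quality weights (0.30, a fitted value set by the prior count; -4.54 to -1.04 with single libraries left out). Of the other named genes, these changed sign. Adgrl4 was -0.02 with voom, -0.05 with quality weights, -0.01 with the stricter filter, -0.01 and -0.02 with the blocks, -0.07 without mouse 4, -0.12 without both libraries that stood apart and -0.12 to 0.14 with single libraries left out. Without both libraries that stood apart, Btg2 was 0.22 (single libraries -1.14 to -0.08), Egr1 1.22, Fos 2.12 and Ldha -0.10 (-0.11 to 0.19). Egr1 was also 0.31 with voom, 0.79 with quality weights, 0.32 with blocks in both stages and -0.50 to 1.05 with single libraries left out; Fos was 0.56 with quality weights and -4.61 to 1.64. Mycn was 0.01 with voom and 0.01 with blocks in both stages (-0.23 to 0.16). With single libraries left out, Cd48 ran from -1.54 to 0.62, Irf1 from -0.09 to 0.28, Oasl2 from -0.07 to 0.33 and Ptprc from -0.31 to 0.04. The cause was not tested. In the simulated data, which held no shared mice and no outlying libraries, edgeR recovered 23 of 100 contrasts of 1. Whether the same share holds for the real libraries was not tested.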

Other observations

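Further genes with an unadjusted edgeR p under 0.05 in the contrast belonged to stress, quiescence and interferon lists, none of them called by edgeR or DESeq2 after adjustment. Fas, a death receptor and p53 target, was at 5.90 to 9.14 CPM in Selp low and 9.06 to 15.2 CPM in Selp high libraries before. It was at 3.55 to 6.50 and 1.10 to 3.94 CPM in their respective derived libraries, with a contrast of -1.67 ± 0.50. Of 28 p53 targets 2 had such a p, both negative (Fas and Perp), beside 2.69% of all genes. The list's median was -0.22, and -0.11 without Selp low-derived replicate 2. Foxo3, a transcription factor of stem cell quiescence, was at 13.9 to 20.3 CPM in all pre-transplant libraries, 19.4 to 36.6 CPM in Selp low-derived and 14.4 to 17.1 CPM in Selp high-derived ones, with a contrast of -0.81 ± 0.29 and -0.52 without Selp low-derived replicate 2. It was the only 1 of 21 genes of CDK inhibition and quiescence with such a p (list median -0.19, and -0.08 without the same library).

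Of 30 type I interferon genes 2 had an unadjusted p under 0.05, both negative (Mx1 and Rtp4), beside 2.69% of all genes. The list median was -0.07, and 0.05 without Selp low-derived replicate 2. Rtp4, which helps some taste receptors reach the cell surface, was higher in the Selp high library of each of the 4 mice before (133 to 224 against 96.6 to 158 CPM). Its groups overlapped after (91.2 to 108 against 80.0 to 135 CPM). The contrast of Rtp4 was -0.66 ± 0.29, and -0.41 when Selp low-derived replicate 2 was left out. Of 34 interferon gamma and antigen presentation genes 27 had a positive contrast, against 8585 of all 16878, with a median of 0.20 (0.10 without Selp high mouse 4). In the main fit only Tap2, a peptide transporter of antigen presentation, had such a p, with a contrast of 0.55 ± 0.20. The groups of Tap2 overlapped at both stages, although before transplantation Selp high was lower in each of the 4 mice. In the fit with a term for the mouse, H2-D1 of this list had such a p as well.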
